A study of Mus musculus with 12 samples.

Results

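The genes described here are 34 genes of glycolysis and of the response to low oxygen, chosen by symbol: 2 glucose transporters, 3 hexokinases, 7 enzymes of upper and 5 of lower glycolysis, 2 genes for making and exporting lactate, 4 regulators of flux, 3 genes of oxygen sensing and 8 target genes of hypoxia-inducible factor (HIF) outside glycolysis. All 34 were found among the 54532 genes of the authors' count table, and 33 passed the filter on low counts, which kept 14547 genes. The exception was P4ha2, which had no count in the isotype libraries (0 counts allow up to 0.235 CPM there) and at most 18 counts, or 1.23 CPM, in any other library. CPM are the counts of a gene scaled by the size of the library and by a TMM factor estimated for that library. They therefore do not add up to the same total in every library.

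Eosinophils with high side scatter and a positive 4get signal were sorted from the spleen of IL-5tg_4get/C57BL/6 mice and cultured for 4 h. All 12 libraries thus came from cells that developed in animals with an interleukin-5 transgene and an interleukin-4 reporter, including those of the controls; ages are not given in the labels. The groups, with 3 libraries each, received rat IgG2a isotype control, 5 µg/mL of rat antibody to Siglec-F (an inhibitory receptor of eosinophils), 10 ng/mL of recombinant murine IL-33 (an alarmin cytokine), or the antibody with IL-33, called both stimuli below. It is not stated in the labels that the 3 libraries of a group are separate animals or separate cultures. The p-values therefore speak only of the spread among these libraries, and that spread may be technical.

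Glycolysis splits glucose into pyruvate in the cytosol, and lactate dehydrogenase turns pyruvate into lactate so that the pathway can keep running without oxygen. Hypoxia-inducible factor 1 alpha (Hif1a) is made all the time and, when oxygen is present, is hydroxylated by prolyl hydroxylases such as Egln1 and Egln3 and then degraded; when it escapes that fate it binds short DNA elements near glycolytic genes, Bnip3, prolyl hydroxylases and many others. In myeloid cells HIF-1 is also known to rise with inflammatory stimuli at normal oxygen.

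The DNA just before the start of a gene is where such elements are often found, so the 250 bases before the RefSeq start are shown for the 4 members with the largest rise under both stimuli, and for Ldha, which was picked afterwards because its window held the most matches. All are read 5′ to 3′ on the strand of the gene, on build GRCm38.p6 (mm10). Capitals mark the letters ACGTG or GCGTG, the core of the hypoxia response element, or their reverse complements CACGT and CACGC.
Egln3, chr12:54203875-54204124, minus strand: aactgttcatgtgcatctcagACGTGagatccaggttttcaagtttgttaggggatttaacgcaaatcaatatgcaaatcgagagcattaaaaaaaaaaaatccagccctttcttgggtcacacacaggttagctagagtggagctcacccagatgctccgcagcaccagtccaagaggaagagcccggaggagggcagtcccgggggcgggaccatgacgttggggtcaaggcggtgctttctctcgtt
Pfkl, chr10:78009808-78010057, minus strand: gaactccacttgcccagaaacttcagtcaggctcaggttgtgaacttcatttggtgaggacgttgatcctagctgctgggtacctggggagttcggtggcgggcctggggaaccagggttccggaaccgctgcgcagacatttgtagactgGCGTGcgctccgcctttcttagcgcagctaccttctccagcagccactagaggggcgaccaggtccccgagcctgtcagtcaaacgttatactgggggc
Ankrd37, chr8:45999851-46000100, minus strand: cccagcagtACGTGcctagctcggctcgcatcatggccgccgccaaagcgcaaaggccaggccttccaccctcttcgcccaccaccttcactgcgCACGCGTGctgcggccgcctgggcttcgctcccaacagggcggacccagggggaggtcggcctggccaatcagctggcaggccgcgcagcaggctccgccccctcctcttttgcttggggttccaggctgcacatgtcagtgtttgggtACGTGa
Tpi1, chr6:124814159-124814408, minus strand: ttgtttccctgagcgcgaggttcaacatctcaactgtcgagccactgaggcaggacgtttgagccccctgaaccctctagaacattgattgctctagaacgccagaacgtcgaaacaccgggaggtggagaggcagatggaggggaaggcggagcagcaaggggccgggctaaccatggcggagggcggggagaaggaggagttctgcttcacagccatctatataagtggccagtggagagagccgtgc
Ldha, chr7:46845554-46845803, plus strand: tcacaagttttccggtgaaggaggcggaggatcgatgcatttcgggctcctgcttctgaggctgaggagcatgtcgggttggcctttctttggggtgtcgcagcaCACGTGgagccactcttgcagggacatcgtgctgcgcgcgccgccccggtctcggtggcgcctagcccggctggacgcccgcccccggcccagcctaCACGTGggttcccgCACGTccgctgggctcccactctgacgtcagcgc

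The windows differed. The Egln3 window held 1 match, 229 bases before the start, and the Pfkl window 1, at 99 bases, counted from the first base of the match. In the Ankrd37 window the 4 matches lay 241, 155, 152 and 6 bases before the start, the middle pair overlapping. The Tpi1 window held none of these letters. In the Ldha window 5 matches lay before the start; 4 of them are the 2 strands of 2 CACGTG runs, each counted on both strands, and another 2 matches lay in the 50 bases after the start, which are not printed.

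Of the 34 members 31 had windows in the RefSeq table, 48 in all, of 250 bases before and 50 after a start; Slc2a3, Bnip3l and Ndrg1 were not matched. ACGTG or GCGTG stood on either strand in 38 of the 48 member windows, or 79.2%, against 43.8% of all 32851 windows and 60.6% of the 12467 windows of genes that passed the expression filter. ACGTG alone stood in 56.3% of member windows, 19.6% of all windows and 25.4% of those of filtered genes. CACGTG, which contains ACGTG on both strands and is also the E-box core, stood in 10.4% of member windows and in 7.15% of all. Among the 16 members that rose under both stimuli 15 held ACGTG or GCGTG in some window, the exception being Tpi1, and among the other 15 members with a window, the untested P4ha2 included, 14 did. ACGTG alone was held by 13 of the 16 and by 10 of the 15. Counted by gene in the same way, 66.4% of the 9812 filtered genes with a window held ACGTG or GCGTG, and 29.3% held ACGTG. A match is a run of letters, not a site shown to be bound.

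Per kb of the gene length in the authors' table, the most abundant members in isotype libraries were Aldoa at 748 ± 73.9 CPM per kb (SD, n = 3), Gapdh at 274 ± 29.2, Pkm at 208 ± 3.88, Eno1 at 195 ± 13.3 and Ldha at 181 ± 16.2. Aldoa, Gapdh and Ldha kept their ranks with the length of the principal transcript, while Eno1 and Pkm changed places; the levels of Pkm, Eno1 and Ldha lay close together. On the same scale Hk2, the highest hexokinase, stood at 50.8 ± 4.32 and Pfkp, the highest phosphofructokinase, at 8.72 ± 1.84. With principal transcript lengths Hk2 and Hk1 lay close together, at 55.0 ± 4.68 and 50.6 ± 1.95. The members as a whole took 1.02% to 1.10% of the counts of an isotype library. They took 1.36%, 1.23% and 1.69% in the 3 libraries with both stimuli, above the 1.01% to 1.15% of the other 9.

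Library 2 with both stimuli had a count in 15555 genes and library 3 in 29990, against 19138 to 24485 in the other libraries, and the share of ribosomal protein genes was 3.45% and 3.99% there and 1.69% to 2.71% elsewhere. The mitochondrial share was 2.86% in IL-33 library 2 and 2.56% in library 2 with both stimuli, against 1.10% to 1.77% in the other libraries, and the summed T cell and ILC2 markers were at 177 CPM in IL-33 library 2, against 40.8 to 93.1 elsewhere. The part of these differences in the results was not tested. Total counts ran from 11686603 to 17137988. The TMM factors were 1.05, 1.04 and 1.06 with isotype and 0.936, 0.940 and 0.861 with both stimuli. CPM with both stimuli thus stand higher against isotype than they would with scaling by library size alone. Orders of libraries by CPM hold for this scaling. The SD of log2 CPM of the members within a group had a median of 0.14 in the isotype group, 0.19 in the antibody group, 0.28 with IL-33 and 0.40 with both stimuli. Of the markers of the labelled cell type, Siglecf, Ccr3, Epx and Prg2 were abundant in every library. None of the 10 eosinophil markers was called in the 3 comparisons with isotype, while 0 of 10 had a log2 fold change above 0 with IL-33 (median -0.42), 4 with the antibody (median -0.07) and 6 with both stimuli (median 0.14).

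With both stimuli, 16 of the 33 members were higher than with isotype and 2 were lower, by edgeR's quasi-likelihood test with an adjusted p under 0.05 over all genes. Over all genes 5.47% were called higher and 4.41% lower. The median log2 fold change of the members was 0.71, beside -0.05 over all genes. By role, lower glycolysis had 5 of 5 members called higher and lactate formation and export 2 of 2; upper glycolysis had 3 of 7, oxygen sensing 2 of 3, glucose transport 1 of 2 and the HIF targets outside glycolysis 3 of 7 higher and 2 of 7 lower. None of the 3 hexokinases or the 4 regulators of flux was called. In bulk libraries a change in RNA per cell and a change in the share of a cell type cannot be told apart.

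**Figure D1:**
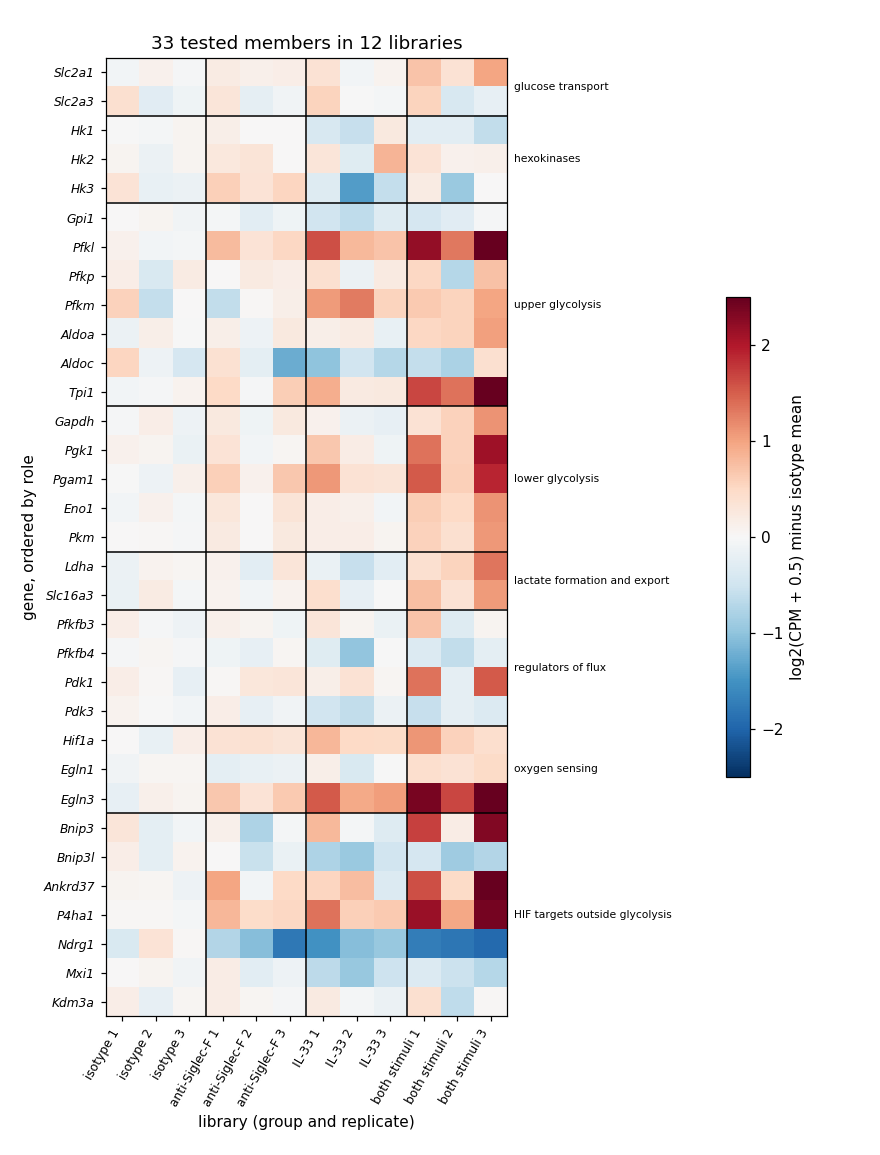
Each cell is log2(CPM + 0.5) of a member in a library minus the mean of the 3 isotype libraries, with genes ordered by role from top to bottom and libraries by group from left to right. Red is higher and blue lower than isotype; the columns of both stimuli are reddest for Pfkl, Tpi1, Egln3 and P4ha1, palest in library 2 and deepest in library 3.

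The count of 18 called members depended on single libraries. It was 7, 10 and 6 without isotype library 1, 2 or 3, 18, 18 and 8 without library 1, 2 or 3 of both stimuli, 12 without its libraries 2 and 3, and 7 when the isotype and combined libraries were fitted alone. The share of all genes called, 9.88% with all libraries, was 3.38%, 5.69%, 3.41%, 19.1%, 8.42%, 6.21% and 4.06% in the fits with libraries left out, and 738 of 13419 genes were called with the 2 groups alone. Pfkl, Tpi1, Pgam1, Egln3, P4ha1 and Ndrg1 were called with any 1 of the 6 libraries left out, and Pgk1 in 5 of these 6 fits (adjusted p = 0.0526 without isotype library 3). The other 11 called members lost their call in 3 or 4 of the 6 fits, while their direction did not change in any of them.

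At the entry of glucose, Slc2a1 (GLUT1; ENSMUSG00000028645, chromosome 4, 119108711 to 119137983), a widely expressed glucose transporter, gave 209, 237 and 215 CPM with isotype, 252, 240.3 and 247 with the antibody, 283, 210.1 and 234 with IL-33 and 362, 283 and 436 with both stimuli. The combined libraries all lay above the isotype ones, library 2 the closest, at about the level of IL-33 library 1. Its log2 fold change over isotype was 0.71 ± 0.17 (SE; edgeR adjusted p = 0.0192). Slc2a3 (GLUT3; ENSMUSG00000003153, chromosome 6, 122727809 to 122801640), a transporter of high affinity, gave 195, 121 and 137 CPM with isotype, 182, 127 and 139.5 with the antibody, 218, 147 and 143 with IL-33 and 218, 112 and 129 with both. Library 1 was highest in every group and the groups overlapped throughout (log2 fold change over isotype 0.02 ± 0.27, edgeR adjusted p = 0.979).

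Hexokinases trap glucose in the cell by phosphorylation. Hk2 (ENSMUSG00000000628, chromosome 6, 82725025 to 82774454), the inducible form, gave 318, 274 and 319 CPM with isotype, 364, 376 and 306 with the antibody, 374, 244 and 548 with IL-33 and 384, 327 and 332 with both stimuli, and its IL-33 libraries alone spanned the range of the others. Its difference with both stimuli was 0.20 ± 0.23 on the log2 scale, with an approximate 95% interval of -0.25 to 0.65 (edgeR adjusted p = 0.63). Hk1 and Hk3, at log2 values of -0.37 ± 0.19 and -0.18 ± 0.31, were not called either. Gpi1, which turns glucose 6-phosphate into fructose 6-phosphate, stood at 900.3, 926 and 840.2 CPM with isotype and 663, 731 and 871 with both stimuli, a log2 difference of -0.24 ± 0.15 that was not called. With IL-33 alone Gpi1 was at 635, 569 and 708 CPM, all below isotype (-0.48 ± 0.16, edgeR adjusted p = 0.147).

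Phosphofructokinase commits the sugar to glycolysis, and its liver-type gene Pfkl (ENSMUSG00000020277, chromosome 10, 77986947 to 78010083) had the second largest rise among the members. Its levels were 33.9, 29.8 and 30.3 CPM with isotype, 54.7, 39.9 and 45.0 with the antibody, 96.8, 55.6 and 51.5 with IL-33 and 146, 78.7 and 242 with both stimuli. Every library with a stimulus lay above every isotype library, and library 2 of both stimuli lay within the IL-33 range. The log2 fold change with both stimuli was 2.31 ± 0.34 (SE; edgeR adjusted p = 0.00118), and it was 2.27 when libraries 2 and 3 of both stimuli were left out. The platelet-type gene Pfkp, at a log2 difference of 0.28 ± 0.29, was not called. Pfkm, the muscle type, stayed at or under 2.99 CPM and lies across Senp1 on the other strand, so its counts are uncertain; Pfkp likewise overlaps Pitrm1, whose counts were 39.2% of its own.

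Within a library, Pfkl gave 0.262, 0.338 and 0.228 counts per Pfkp count in the isotype libraries, 0.476, 0.296 and 0.349 with the antibody, 0.635, 0.537 and 0.385 with IL-33 and 0.890, 1.12 and 1.27 with both stimuli. The ratio with both stimuli lay above that of every other library, with library 2 in the middle of its group. Per kb the mean ratio went from 0.554 to 2.19 with the authors' gene lengths, and from 0.307 to 1.22 with principal transcript lengths. With principal lengths the ratio per kb in the 3 libraries of both stimuli was 0.989, 1.25 and 1.41, against 0.253 to 0.375 in the isotype libraries, so Pfkl was not above Pfkp per kb in library 1. Egln3 over Egln1 went from 0.820 ± 0.0561 with isotype to 3.15 ± 1.09 with both (SD, n = 3). Hk2 over Hk1 went from 1.56 ± 0.0980 to 2.33 ± 0.304, where IL-33 alone gave 2.26 ± 0.345.

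**Figure D2:**
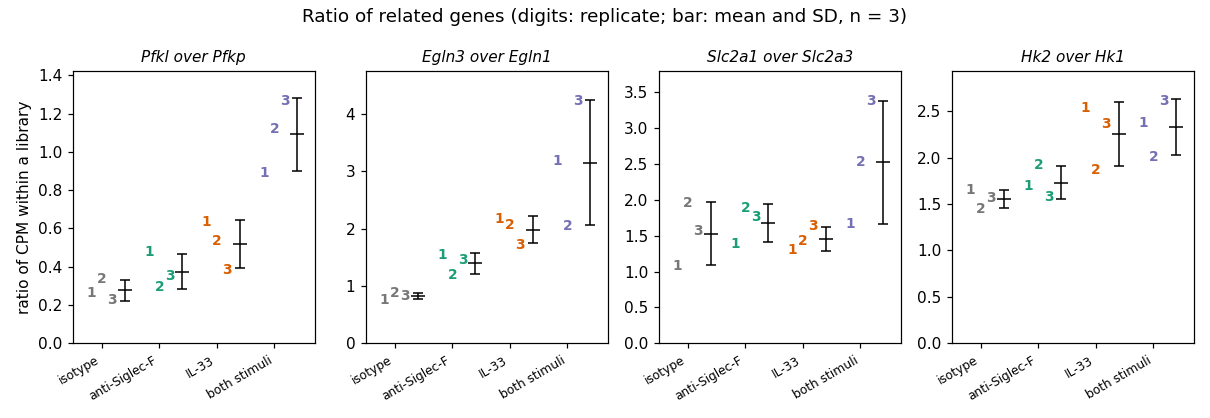
Ratio of the CPM of related genes within each library, on the y axis, by group on the x axis; digits mark the replicate and the black bars the mean with its SD (n = 3). All libraries with both stimuli lie above all isotype libraries for Pfkl over Pfkp, Egln3 over Egln1 and Hk2 over Hk1, but not for Slc2a1 over Slc2a3, where library 1 (1.66) lies under isotype library 2 (1.95).

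Aldolase and triose phosphate isomerase make the pair of triose phosphates that enter lower glycolysis. Tpi1 (ENSMUSG00000023456, chromosome 6, 124810586 to 124814296), the isomerase, gave 103, 105 and 115 CPM with isotype, 153, 106 and 164 with the antibody, 202, 125 and 128 with IL-33 and 345, 278 and 742 with both stimuli. The lowest library with both stimuli stood above the highest of all the other groups, and library 3 stood far above its own group. The log2 fold change over isotype was 2.08 ± 0.32 (SE; edgeR adjusted p = 0.00163). Spsb2, which overlaps it on the other strand with 17.98% of its counts, had a log2 difference of 0.41 (adjusted p = 0.223). Aldoa changed by 0.71 ± 0.19 (adjusted p = 0.031), from 1974, 2403 and 2158 CPM to 3093, 3207 and 4410.2, and Aldoc, the brain form, stayed at or under 6.66 CPM.

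Lower glycolysis begins with Gapdh (ENSMUSG00000057666, chromosome 6, 125161715 to 125166467), the dehydrogenase often used as a reference gene. It gave 1104, 1265 and 1029 CPM with isotype, 1342, 1053 and 1342 with the antibody, 1216, 1026 and 984 with IL-33 and 1447, 1682 and 2475 with both stimuli. The combined libraries lay above all others, and the other 3 groups overlapped. Its log2 fold change over isotype of 0.72 ± 0.20 (edgeR adjusted p = 0.0409) was 0.41 without libraries 2 and 3 of both stimuli (adjusted p = 0.390).

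Pgk1 (ENSMUSG00000062070, chromosome X, 106187100 to 106203699), which makes the first ATP of the pathway, gave 132, 129 and 109 CPM with isotype, 156, 118 and 128 with the antibody, 198, 139.8 and 114 with IL-33 and 316, 184 and 539 with both stimuli, a log2 fold change of 1.49 ± 0.31 over isotype (edgeR adjusted p = 0.00991). Pgam1 (ENSMUSG00000011752, chromosome 19, 41911871 to 41918664), the next enzyme, gave 63.8, 58.2 and 70.3 CPM with isotype, 97.1, 68.7 and 102 with the antibody, 136, 82.1 and 80.0 with IL-33 and 186, 96.4 and 240.2 with both, a log2 fold change of 1.44 ± 0.30 (adjusted p = 0.0089). For both genes all combined libraries exceeded all isotype libraries, and library 2 fell among the IL-33 ones. Eno1 (enolase 1; ENSMUSG00000063524, chromosome 4, 150236721 to 150248879) gave 999, 1131 and 1017 CPM with isotype, 1277, 1062 and 1315 with the antibody, 1179.5, 1143 and 1003 with IL-33 and 1615, 1476 and 2296 with both, and here every combined library exceeded every other library (log2 fold change 0.78 ± 0.18, adjusted p = 0.0178). Pkm, pyruvate kinase, changed by 0.71 ± 0.18 (adjusted p = 0.0237). Gene copies matched by description, mostly pseudogenes, added at most 0.693% to the counts of any member.

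Lactate dehydrogenase A and the exporter MCT4 carry the end product out. Ldha (ENSMUSG00000063229, chromosome 7, 46841475 to 46855627) gave 539.9, 641 and 621 CPM with isotype, 643, 501 and 737 with the antibody, 533, 403 and 498 with IL-33 and 787, 876 and 1511 with both stimuli. Its IL-33 libraries all lay below every isotype library, and its combined libraries all lay above every other library. The log2 fold change with both over isotype was 0.82 ± 0.24 (edgeR adjusted p = 0.0437), and 0.44 without libraries 2 and 3 (adjusted p = 0.384). Slc16a3, the gene of MCT4 (ENSMUSG00000025161, chromosome 11, 120948480 to 120960868), gave 618, 798 and 666 CPM with isotype, 731, 661 and 735 with the antibody, 927, 598 and 684 with IL-33 and 1160.1, 880.2 and 1443 with both, library 2 falling among the IL-33 libraries (log2 fold change 0.74 ± 0.21, adjusted p = 0.0392).

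The regulators of flux were not called. Pdk1, a kinase that holds pyruvate back from oxidation in the mitochondrion, gave 7.77, 7.09 and 5.96 CPM with isotype and 18.6, 5.80 and 20.9 with both stimuli. Libraries 1 and 3 of both stimuli were high and library 2 lay below the isotype range (log2 fold change 1.12 ± 0.36, edgeR adjusted p = 0.0619). Pdk3, of the same family, had a log2 difference of -0.38 ± 0.16. The bifunctional enzymes that set fructose 2,6-bisphosphate, Pfkfb3 and Pfkfb4, had log2 differences of 0.21 ± 0.22 and -0.40 ± 0.21.

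**Figure D3:**
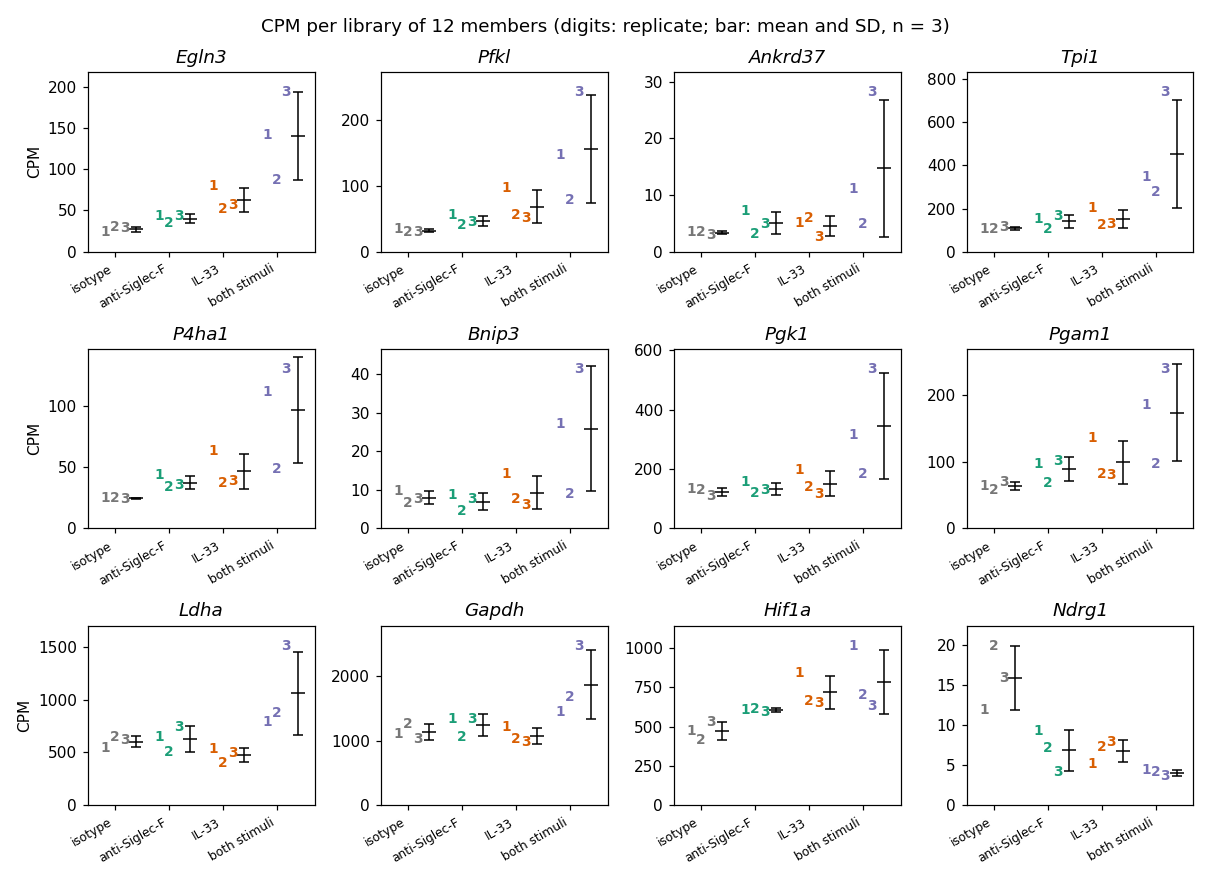
CPM (y axis, from 0) of 12 members by group (x axis); digits give the replicate number and the black bars the mean with its SD (n = 3). For Tpi1, Egln3, Ldha and Gapdh the 3 libraries with both stimuli lie above all other 9, library 3 is the highest combined library in every panel but those of Hif1a and Ndrg1, and for Ndrg1 the isotype libraries lie above all others.

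Among the genes of oxygen sensing, Hif1a itself (ENSMUSG00000021109, chromosome 12, 73901375 to 73947530) gave 472, 417 and 532 CPM with isotype, 607, 614 and 591 with the antibody, 840.2, 662 and 653 with IL-33 and 1017, 704 and 631 with both stimuli. Each stimulated library exceeded each isotype library, and the IL-33 and combined groups overlapped. Its log2 fold change with both stimuli was 0.73 ± 0.19 (edgeR adjusted p = 0.0288), and 1.15 without libraries 2 and 3 (adjusted p = 0.00783). Of the 16 members called higher it was the 1 in which library 1 was the highest of its group and library 3 the lowest.

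Egln3 (ENSMUSG00000035105, chromosome 12, 54178981 to 54203860), the prolyl hydroxylase that is itself a HIF target, had the largest rise of all members. It gave 23.4, 29.7 and 28.2 CPM with isotype, 43.1, 34.3 and 43.0 with the antibody, 79.5, 52.2 and 56.1 with IL-33 and 141, 86.6 and 194 with both stimuli. The 4 groups did not overlap and followed that order, from isotype through the antibody and IL-33 to both. Its log2 fold change over isotype was 0.57 ± 0.25 with the antibody (edgeR adjusted p = 1.00, unadjusted p = 0.0428), 1.21 ± 0.26 with IL-33 (adjusted p = 0.0253) and 2.38 ± 0.26 with both (adjusted p = 0.000163); the 3 values share the isotype libraries. Egln1 (ENSMUSG00000031987, chromosome 8, 124908587 to 124949324), the main hydroxylase of HIF at rest, gave 30.8, 34.0 and 34.1 CPM with isotype, 27.9, 28.9 and 29.7 with the antibody, 36.6, 25.2 and 32.8 with IL-33 and 44.5, 42.2 and 45.9 with both. Its combined libraries exceeded all others, and the log2 difference from isotype was 0.42 ± 0.15 (adjusted p = 0.0971).

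Outside glycolysis the HIF targets split. P4ha1 (ENSMUSG00000019916, chromosome 10, 59323296 to 59373304), a collagen prolyl hydroxylase, gave 24.8, 24.8 and 23.7 CPM with isotype, 43.6, 33.6 and 35.3 with the antibody, 63.4, 37.1 and 38.9 with IL-33 and 111, 48.4 and 130.4 with both stimuli, and every stimulated library lay above the narrow isotype range. Its log2 fold change with both was 1.99 ± 0.31 (edgeR adjusted p = 0.00161). Bnip3 (ENSMUSG00000078566, chromosome 7, 138890836 to 138909519), a receptor for mitophagy, gave 9.79, 6.57 and 7.52 CPM with isotype, 8.65, 4.42 and 7.54 with the antibody, 14.1, 7.55 and 6.14 with IL-33 and 27.0, 9.0 and 41.3 with both stimuli. Libraries 1 and 3 of the combined group were high, whereas library 2 lay within the isotype range (log2 fold change 1.69 ± 0.46, adjusted p = 0.0347; 1.17 without library 3, where the call was lost). Ankrd37 (ENSMUSG00000050914, chromosome 8, 45996902 to 46005707), an ankyrin repeat gene known as a HIF-1 target, gave 3.52, 3.47 and 2.98 CPM with isotype, 7.08, 3.13 and 4.87 with the antibody, 5.03, 5.98 and 2.51 with IL-33 and 11.1, 4.79 and 28.2 with both, a log2 fold change of 2.14 ± 0.54 (adjusted p = 0.0232). These low counts are uncertain, because Ufsp2 overlaps the gene on the other strand with 623% of its counts; Ufsp2 had a log2 difference of 0.42 (adjusted p = 0.0623). The call of Ankrd37 too was lost without library 3 of both stimuli.

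Of the remaining 4 tested targets 2 were called lower and 0 higher. Ndrg1 (ENSMUSG00000005125, chromosome 15, 66929318 to 66969640), a gene known to be induced by hypoxia in many cells, gave 11.9, 19.9 and 15.9 CPM with isotype, 9.23, 7.15 and 4.14 with the antibody, 5.16, 7.24 and 7.89 with IL-33 and 4.38, 4.12 and 3.68 with both stimuli. The isotype libraries exceeded all others, and the combined libraries lay close to each other. The log2 fold change was -1.22 ± 0.30 with the antibody (edgeR adjusted p = 1.00, unadjusted p = 0.00121), -1.24 ± 0.30 with IL-33 (adjusted p = 0.0498) and -1.97 ± 0.31 with both (adjusted p = 0.0017). Bnip3l, the relative of Bnip3, was lower with both stimuli, at -0.69 ± 0.19 (adjusted p = 0.0385), from 100.0, 75.2 and 95.3 CPM to 66.4, 47.9 and 53.8. Bnip3 and Bnip3l were thus called in opposite directions. With IL-33 alone Bnip3l was as low, at 52.5, 46.9 and 64.1 CPM (-0.73 ± 0.19, edgeR adjusted p = 0.0719, not called). Mxi1 (ENSMUSG00000025025, chromosome 19, 53310506 to 53375810), an antagonist of Myc, gave 158, 166 and 149 CPM with isotype, 179.5, 132 and 143 with the antibody, 101, 81.2 and 111 with IL-33 and 125, 108 and 95.7 with both stimuli. All 6 libraries with IL-33 lay below all 6 without it; the log2 difference was -0.70 ± 0.17 with IL-33 alone (adjusted p = 0.0455) and -0.53 ± 0.17 with both (adjusted p = 0.06). Kdm3a, a histone demethylase, had a log2 difference of -0.01 ± 0.22 with both.

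Against isotype, IL-33 by itself gave a call for 3 members in the fit with no replicate block: Egln3 was higher, and Ndrg1 and Mxi1 were lower. Over all genes 1.46% were called higher and 0.749% lower. The median of the members was 0.09 beside -0.01 over all genes, and 12 of 33 had an unadjusted p under 0.05, as did 1980 genes over all. Pfkl, at 1.12 ± 0.33, and P4ha1, at 0.93 ± 0.30, were not called (adjusted p = 0.11 and 0.15), nor were Tpi1 at 0.49 ± 0.31, Pgk1 at 0.29 ± 0.31 or Ldha at -0.33 ± 0.23. Equal replicate numbers deviated together in these 2 groups. With the replicate number as a block over all 12 libraries Egln3 and Mxi1 were called (edgeR adjusted p = 0.0239 and 0.0429). Bnip3l was also called (adjusted p = 0.0233), and Ndrg1 was not (adjusted p = 0.0616). A fit of these 2 groups alone with that block, added after the data were seen, called 8 members, 4 of them higher. That fit called 1235 of 13597 genes. With 1 of the 6 libraries left out Ndrg1 was not called in any fit, Mxi1 was called in 1 of these 6 fits, and Egln3 in 2.

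The antibody by itself gave no call among the members or among all genes (0% of all genes) by edgeR, nor among the members by DESeq2 or limma's voom; 2 members, Egln3 and Ndrg1, had an unadjusted p under 0.05, as did 370 genes over all. In 6 members all antibody libraries lay above all isotype libraries (6.73% of all genes), and in 2 all lay below (6.51% of all genes). The first were Slc2a1, Hk3, Pfkl (0.57 ± 0.33 on the log2 scale), Hif1a (0.35 ± 0.19), Egln3 and P4ha1 (0.62 ± 0.30), and the others were Ndrg1 and Egln1.

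What the antibody added to IL-33 was not called for any member by edgeR (0% of all genes), where 18 of 33 members and 2526 of all 14547 genes had an unadjusted p under 0.05 and the smallest adjusted p was 0.191. The median log2 fold change of the members was 0.57, beside -0.03 over all genes, and 26 of 33 values were above 0. DESeq2 called 15 members higher, beside 2.62% of all genes, and voom 0. Tpi1 differed by 1.59 ± 0.32 on the log2 scale, with an approximate 95% interval of 0.96 to 2.21. Ldha differed by 1.15 ± 0.24 (0.68 to 1.61), Egln3 by 1.17 ± 0.25 (0.67 to 1.66) and Gapdh by 0.80 ± 0.20 (0.40 to 1.20). In 8 members all combined libraries lay above all IL-33 libraries (6.98% of all genes): Aldoa, Tpi1, Gapdh, Eno1, Pkm, Ldha, Egln1 and Egln3. In 1, Ndrg1, all lay below (7.07% of all genes). Hif1a differed by 0.13 ± 0.19 and Hk2 by -0.16 ± 0.23. Without library 1 of both stimuli edgeR called 10 members higher, in a fit that called 2116 of 15278 genes, 1116 of them higher.

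**Figure D4:**
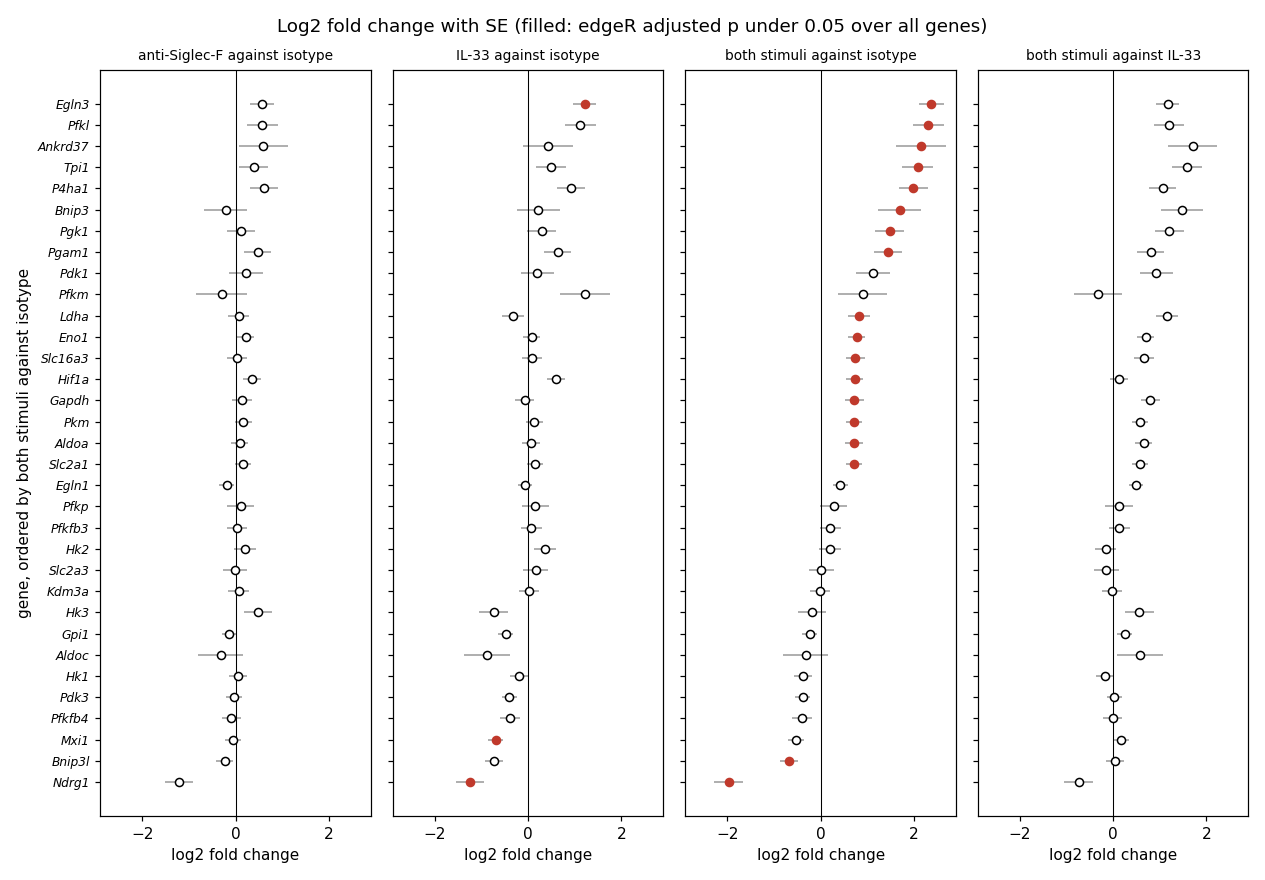
Log2 fold change (x axis) with its SE for the 33 tested members, in 4 comparisons that share libraries; genes are in the order of their change with both stimuli against isotype, and filled points passed edgeR's adjusted p of 0.05 over all genes. Tpi1, Egln3, Pfkl and Pgk1 lie right of 0 in all 4 panels, and Ndrg1 lies left of 0 in all 4.

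Against the antibody alone, 7 members were higher with both stimuli and 0 lower, where 2.70% of all genes were called higher and 1.72% lower. These were Bnip3 at 1.91 ± 0.47, Egln3 at 1.81 ± 0.26, Pfkl at 1.74 ± 0.33, Tpi1 at 1.69 ± 0.32, Pgk1 at 1.37 ± 0.31, P4ha1 at 1.37 ± 0.30 and Egln1 at 0.62 ± 0.15 (edgeR adjusted p from 0.00198 for Egln3 to 0.04 for Egln1). Leaving out 1 library of either group gave 1, 1 and 2 calls without antibody library 1, 2 or 3 and 14, 11 and 3 without library 1, 2 or 3 of both stimuli, and Egln3 was called each time. The share of all genes called moved with these counts, at 0.816%, 0.908%, 1.35%, 18.6%, 3.61% and 1.39% in the same order. The interaction, which takes the effect of the antibody in the absence of IL-33 away from its effect in the presence of IL-33, gave no call (0% of all genes), with 6 members and 1150 genes over all at an unadjusted p under 0.05. The members were Ldha at 1.08 ± 0.33, Egln1 at 0.68 ± 0.22, Tpi1 at 1.20 ± 0.44, Bnip3 at 1.69 ± 0.65, Pgk1 at 1.08 ± 0.43 and Gapdh at 0.66 ± 0.29 (adjusted p = 0.583 for each). DESeq2 and voom called 0 members there as well. The median interaction of the members was 0.41 beside -0.03 over all genes, and 27 of 33 values were positive.

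The rise with both stimuli was spread unevenly over the 3 libraries. Library 3 was the highest of its group in 15 of the 16 members called higher, against 57.4% of the 796 genes called higher over all, and library 2 was the lowest in 12 of the 16, against 48.1%. The median log2 difference of the 33 members from the isotype mean was 0.55 in library 1, 0.35 in library 2 and 0.98 in library 3, while the median over all genes lay between -0.09 and -0.04. Relative to the highest isotype library, 24, 17 and 21 of the 33 members stood higher in the 3 libraries. The same counts were 19, 9 and 15 in the antibody libraries and 21, 13 and 10 in the IL-33 libraries. The share over all genes was not counted, so these numbers are not read as a result. The number of detected genes and the ribosomal share of library 1 lay within those of the other groups. A fit with library 1 alone in its group assumes that it varies like the libraries of the other groups. The part of the differences between libraries in the rise was not tested.

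Of 15 tested markers of monocytes and macrophages 5 were higher and 1 lower with both stimuli: Csf1r at 1.24 ± 0.16, Cd14 at 3.52 ± 0.61, Adgre1 at 1.08 ± 0.17, Spic at 3.92 ± 0.67 and Slc40a1 at 1.79 ± 0.46, against Ccr2 at -1.13 ± 0.27. Their summed level went from 1643 to 1941 CPM with isotype, over 2175 to 2514 with the antibody and 2707 to 3689 with IL-33, to 3380 to 4471 with both. Adgre1, which encodes F4/80 and is also made by mouse eosinophils, was the largest part of the sum at 2345, 2199.5 and 2671 CPM with both stimuli. C1qa, C1qb, C1qc, Cd5l and Ms4a7 of this list stayed at or under 3.34 CPM in every library. Vcam1, which was not called, went from 39.0, 18.1 and 10.8 CPM with isotype to 91.8, 42.1 and 132 with both. Spic went from 1.31, 1.33 and 0.549 CPM with isotype to 17.2, 5.30 and 26.2 with both. Hdc of the basophil list and Batf3 of the dendritic cell list were higher (1.93 ± 0.44 and 2.43 ± 0.31), and 0 markers of neutrophils, T cells, B cells and red cells were called. Granule genes of eosinophils varied between libraries of a group: Prg2 gave 2826, 1553 and 658 CPM with isotype and 1772, 896 and 5372 with both. The part of these cells and of granule genes in the rise of the members was not tested.

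Other genes of the same pathways were counted for both stimuli against isotype, in this paragraph and the next. In that comparison 5.47% of all genes were called higher and 4.41% lower, with a median log2 fold change of -0.05. Of 33 other HIF targets 10 were higher and 1 lower, with a median of 0.45. Nampt, which makes NAD, went from 172, 117 and 112 CPM with isotype to 1375, 496 and 1351 with both (3.01 ± 0.42 on the log2 scale, edgeR adjusted p = 0.000929), and Ero1l, an oxidase of the endoplasmic reticulum, from 239.8, 160.4 and 166 to 1481, 574 and 1405 (2.61 ± 0.38, adjusted p = 0.00109). Mif, a cytokine, rose by 1.95 ± 0.37. Ak4, a mitochondrial adenylate kinase, had 1 count in all isotype libraries together and 3.29, 1.93 and 5.45 CPM with both. Nampt and Ero1l were called with IL-33 alone too, at 2.22 ± 0.41 and 1.64 ± 0.37, with Il1rn and Tfrc.

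Of 26 other genes of glycolytic isoenzymes and pyruvate handling 2 were higher and 3 lower, with a median of -0.33. The transporter gene Slc2a6 was higher, from 53.7, 65.8 and 65.4 CPM with isotype to 237, 266 and 193 with IL-33 and 236, 174 and 329 with both (2.00 ± 0.22, edgeR adjusted p = 0.000161), and it stood at 52.4, 52.8 and 64.6 with the antibody. Its IL-33 and combined libraries overlapped and lay above all libraries without IL-33. Mpc1, a subunit of the mitochondrial pyruvate carrier, was also higher (0.63 ± 0.19), while Pdk2 (-2.11 ± 0.45), the muscle gene Pgam2 (-1.31 ± 0.32) and Slc2a8 (-0.93 ± 0.27) were lower. Of the 16 tested genes of the HIF machinery 3 were higher and 0 lower: Rheb (0.72 ± 0.17), Nfkb1 (0.71 ± 0.20) and Vhl (0.63 ± 0.14), the last the adaptor that marks HIF for degradation. In the pentose phosphate pathway 2 of 10 genes, Pgd (0.92 ± 0.24) and G6pdx (0.67 ± 0.19), were higher and H6pd (-0.84 ± 0.24) was lower. In the tricarboxylic acid cycle 1 of 16 genes was called, Idh3a, which was higher (1.24 ± 0.21); the median of these 16 genes was 0.18.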

How the data were processed

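The values used are the raw gene counts that the authors deposited for 12 libraries and 54532 genes; reads were placed on mm10 with STAR 2.6.1d and counted with featureCounts 1.5.0-p3, and fastp, FastQC 0.11.8 and DESeq2 were also used, per the submitters' processing notes. As for the strand setting and the annotation release, neither is given in the sources used here, so counts of overlapping genes are uncertain; gene coordinates of 32 of the 34 members equal those of GENCODE M21. A second row with the symbol Aldoa was kept apart. The authors' normalized values were not used here.

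The counts were tested with edgeR 4.0.16 in R 4.3.3 (quasi-likelihood F test, TMM scaling, filterByExpr by group, all 12 libraries in 1 fit, no replicate block). P-values were adjusted by the Benjamini-Hochberg method over 14547 genes in each of 6 comparisons, and an adjusted p under 0.05 was called. The SE is the size of the log2 fold change over the root of its F statistic. The 95% intervals are the log2 fold change ± 1.96 SE and are approximate, since the normal quantile makes them narrower than the F test. For P4ha1 with the antibody the interval was 0.03 to 1.21 while the edgeR unadjusted p was 0.0599. CPM use the TMM factors. The comparisons share groups and are not independent. Total counts were 11686603 to 17137988. The alternatives were DESeq2 1.42.0, other scaling and filters, voom of limma 3.58.1, a replicate block, fewer libraries and other gene lengths. The test of both stimuli against isotype was also run on simulated counts. Those counts had the same spread in every group, so that run could not test the effect of unequal spread between groups. Equal replicate numbers were taken as pairing libraries where all 3 correlations of their deviations from the group means were over 0.1, which held for IL-33 against isotype only (0.27, 0.29 and 0.19).

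Library values are given for the 12 called members with the largest change under both stimuli, every member called elsewhere, and Slc2a1, Slc2a3, Hk2, Gapdh, Ldha, Hif1a, Egln1 and Egln3; values of some other members, chosen after they were seen, were added, as was the Ldha window. Of the 227 symbols listed in all, 224 were in the table, and up to 4 called genes of each other list are named, or all where 5 or fewer were called. The members and lists were chosen with earlier results of these data known. Promoter windows are those of RefSeq on GRCm38.p6, matched by symbol.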

Additional observations from a re-analysis of the deposited data

How the results depend on the processing

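Counts of called members moved with the processing, and no direction of a called member reversed under any alternative. For IL-33 against isotype the 3 calls became 8 with DESeq2, 1 with DESeq2's size factors in edgeR, 6 with no filter, 5 with only the groups compared, 11 with voom and quality weights and 7 without libraries 2 and 3 of both stimuli; leaving out 1 library gave 0 to 2. For both stimuli against isotype the 18 calls became 7 with only the groups compared, and 6 to 18 with 1 library left out. For both stimuli against IL-33 the 0 calls became 15 with DESeq2 and 10 with no filter, and 0 to 10 with 1 library left out. DESeq2 called 470 of 14547 genes there, and the fit with no filter called 786 of 35803. For both stimuli against the antibody the 7 calls became 16 with DESeq2, 3 with only the groups compared, 3 with voom, and 1 to 14 with 1 library left out. With no filter the antibody against isotype gave 1 call and the interaction 2, where 70 and 86 of 35803 genes were called. The share of all genes called moved too. For IL-33 against isotype it was 2.21% in the reported fit, 5.62% with DESeq2 and 14.4% with voom. There it was 2.17% with DESeq2's size factors, 1.91% with no filter and 3.41% with only the groups compared. With 1 library left out it ran from 0.760% to 3.20%. For both stimuli against the antibody 643, 1599 and 424 of the 14547 genes were called in the reported fit, DESeq2 and voom. With only the groups compared 242 of 13376 genes were called there. The cause of these moves was not tested.

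With a replicate block 3 members were called for IL-33 against isotype, 16 with both stimuli against isotype, 8 with both against the antibody and 0 for the other comparisons. Fits of only the groups compared with a replicate block, added after the data were seen, gave 8, 9 and 5 calls in the same 3 comparisons. Those fits called 9.08%, 6.83% and 2.62% of all genes. Over all alternatives, single called members kept their call in 194 cases and lost it in 76 with both stimuli set against isotype, 71 and 34 with both set against the antibody, and 27 and 18 with IL-33 set against isotype. With principal transcript lengths, also added later, the ratio per kb of Slc2a1 over Slc2a3 in isotype libraries was 1.86 in place of 3.16, and that of Hk2 over Hk1 was 1.09 in place of 2.22. For both stimuli against isotype the widest standard errors, 0.46 to 0.54 on the log2 scale, were those of Ankrd37, Pfkm, Aldoc and Bnip3, with means over the 12 libraries of 6.89, 1.52, 3.65 and 12.5 CPM.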
